A study of Mus musculus with 4 samples.

Results

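The genes described here are 38 mouse genes of the unfolded protein response and the integrated stress response. They were chosen by gene symbol from lists of known pathway members, with earlier results of these data known. They are 38 of the 21981 genes with a row in the deposited tables, and all 38 were found. By role they fall into 6 stress sensors and their factors, 8 factors and effectors of the integrated stress response, 8 genes of amino acid and one-carbon metabolism, and 16 chaperones and quality control genes of the endoplasmic reticulum (ER). The samples are bulk RNA-seq libraries of microglia, the resident macrophages of the brain, from the cerebral cortex of untreated mouse embryos at embryonic day 16. The cKO libraries (cKO 2 and cKO 5) carry a conditional deletion of Bach1, a heme-binding transcriptional repressor, with a driver the labels name only as Cx3. The control libraries (control 1 and control 6) carry the floxed Bach1 allele, and the labels name no Cre for them. The labels leave out whether each library is a separate animal, how the microglia were isolated and which exons were deleted, so p-values measure only the spread between these 4 samples.

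Proteins that enter the secretory pathway fold inside the ER with the help of chaperones and disulfide isomerases. When unfolded proteins build up there, 3 membrane sensors respond: ATF6 is cut to release a transcription factor, IRE1 splices the Xbp1 mRNA, and PERK phosphorylates the initiation factor eIF2 alpha. ATF6 and spliced XBP1 switch on ER chaperones and the machinery that degrades misfolded proteins. Phosphorylated eIF2 alpha, which is also the product of kinases that sense amino acid shortage or heme shortage, slows translation in general but favours translation of ATF4, which switches on genes of amino acid synthesis, amino acid transport and one-carbon metabolism. Microglia secrete proteins and engulf debris, and the brain's vessels carry many amino acid transporters of the ATF4 branch. Counts per gene show neither Xbp1 splicing nor ATF4 translation, the steps at which these pathways are switched on.

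The branches were first compared in promoter sequence, which does not depend on the expression values. The groups were formed by known role, so the shares describe these lists and do not test the roles. RefSeq promoters in GRCm38.p6 (250 bases before to 50 after the start) were matched for 35 of the 38 genes, all but Slc7a5, Atf6 and Manf. They were searched on both strands for 4 motifs. The ER stress response element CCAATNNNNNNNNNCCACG, bound by ATF6 with the factor NF-Y, stood in 8 of 15 promoters of the chaperone branch, in 0 of 7 of the amino acid branch, in 0 of 8 of the integrated stress factors and in 0 of 5 of the sensors. It stood in 0.119% of all 32851 promoters. The windows below show these elements in capitals with 6 bases on either side, on the strand of the gene, and a match on the opposite strand reads CGTGG first.
Hspa5, chr2:34772019-34772049, plus strand: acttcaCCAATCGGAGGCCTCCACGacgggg
Hsp90b1, chr10:86705632-86705662, minus strand: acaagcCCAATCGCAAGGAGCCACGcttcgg
Hsp90b1, chr10:86705527-86705557, minus strand: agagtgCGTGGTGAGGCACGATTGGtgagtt
Calr, chr8:84847069-84847099, minus strand: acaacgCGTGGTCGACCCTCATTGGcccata
Canx, chr11:50325794-50325824, minus strand: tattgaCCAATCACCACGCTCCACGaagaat
Pdia6, chr12:17266485-17266515, plus strand: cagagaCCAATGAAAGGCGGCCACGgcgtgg
Dnajc3, chr14:118937821-118937851, plus strand: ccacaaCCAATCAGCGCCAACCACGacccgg
Creld2, chr15:88819514-88819544, plus strand: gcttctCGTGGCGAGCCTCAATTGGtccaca
Syvn1, chr19:6046526-6046556, plus strand: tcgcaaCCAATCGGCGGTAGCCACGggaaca

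A shorter relative of that element, ATTGG and CCACG with any 1 base between them, stood in 0.0365% of all promoters and in those of Dnajb11 and Herpud1, both of the chaperone branch. The motif TGACGTGG, bound by XBP1 and ATF6, stood in 0.676% of all promoters and in none of the 35 matched ones. The composite element TGATGNAA, bound by ATF4 with a C/EBP partner, stood in 3.97% of all promoters and in those of Asns, Trib3, Chac1 and Herpud1. By role it stood in 1 of 7 promoters of the amino acid branch and 2 of 8 of the integrated stress factors. It stood in 1 of 15 of the chaperone branch and 0 of 5 of the sensors. Herpud1 thus had a match to both the shorter ER stress element and the ATF4 element, and no matches of different motifs overlapped. The windows below show these matches in capitals with 6 bases on either side.
Dnajb11, chr16:22857846-22857868, plus strand: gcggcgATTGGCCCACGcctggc
Herpud1, chr8:94386371-94386393, plus strand: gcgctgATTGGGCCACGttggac
Herpud1, chr8:94386311-94386330, plus strand: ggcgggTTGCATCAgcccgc
Asns, chr6:7693219-7693238, minus strand: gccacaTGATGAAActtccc
Chac1, chr2:119351043-119351062, plus strand: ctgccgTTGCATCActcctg
Trib3, chr2:152344033-152344052, minus strand: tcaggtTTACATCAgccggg

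The 250 bases before the RefSeq start are shown for Hspa5 and Asns, with the match in capitals, to place the motif in its surroundings. Asns was the only 1 of the 7 amino acid promoters with an ATF4 element. In Hspa5 the element runs from position -65 to -47, and in Asns the ATF4 element runs from -23 to -16, with the first transcribed base counted as 0. A match describes letters in a window and does not show that a factor was bound in these cells.
Hspa5, chr2:34771840-34772089, plus strand: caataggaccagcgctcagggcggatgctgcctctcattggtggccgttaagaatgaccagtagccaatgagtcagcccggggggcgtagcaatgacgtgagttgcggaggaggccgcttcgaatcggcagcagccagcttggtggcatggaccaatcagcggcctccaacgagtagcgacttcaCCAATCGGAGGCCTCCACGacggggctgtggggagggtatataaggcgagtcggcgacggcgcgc
Asns, chr6:7693210-7693459, minus strand: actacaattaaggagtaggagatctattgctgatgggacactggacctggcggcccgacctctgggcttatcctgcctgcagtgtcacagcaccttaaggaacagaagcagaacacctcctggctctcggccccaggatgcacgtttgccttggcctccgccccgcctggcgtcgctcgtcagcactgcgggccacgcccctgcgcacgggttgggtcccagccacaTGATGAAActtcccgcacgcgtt

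The libraries held 17310621 reads in cKO 2 and 19305078 in cKO 5, against 17472809 in control 1 and 17233115 in control 6. Counts as CPM, in which each library is scaled to the same total, are given below as deposited, and 3 reads correspond to 0.155 to 0.174 CPM, a floor that covers counting error only. Bach1 had 29.98 and 35.4 CPM in the cKO libraries and 45.8 and 21.6 CPM in the controls, so the groups overlapped. Which exons were deleted is not known here, so counts over the whole gene do not check the genotype labels. Xist was at 0 in cKO 2 and control 6 and Ddx3y was at 0 in cKO 5 and control 1, so the libraries of each genotype came from RNA of different sexes. Microglial markers were detected in all libraries (20 of 20 tested), with a summed level of 10487 CPM in cKO 2 and 40838 CPM in cKO 5, against 28837 CPM in control 1 and 45965 CPM in control 6. All 20 were lowest in cKO 2. Markers of cortical excitatory neurons (12 of 12 tested) summed to 4138 and 355 CPM in cKO 2 and cKO 5, against 1230 and 375 CPM in control 1 and control 6. Those of radial glia and astrocytes (12 of 12) summed to 1123 and 180 CPM in the cKO libraries, against 554 and 194 CPM in the controls, and Gfap was at 0 in cKO 5. Endothelial markers (10, of which 9 were tested) summed to 3876 and 791 CPM in the cKO libraries, against 5306 and 1178 CPM in the controls. Pericyte and fibroblast markers (9 of 10) summed to 3201 and 257 CPM in the cKO libraries, against 3498 and 678 CPM in the controls. Col1a1 was at 0 in cKO 5 and Dcn at 0 in control 6. Markers of border-associated macrophages (8 of 8) summed to 403 and 1815 CPM in the cKO libraries and 943 and 1205 CPM in the controls, with Cd163 at 0 in control 6. Erythroid markers (7 of 7) summed to 220 and 112 CPM in the cKO libraries and 306 and 110 CPM in the controls. In such bulk samples, fewer cells of a type and less RNA per cell cannot be told apart.

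None of the 37 members tested separated the genotypes by the test, and the remaining member, Chac1, was not tested. The quasi-likelihood test of edgeR was run on 15951 genes, of which 0 passed an adjusted p of 0.05 in either direction (0%), and each of the 37 members tested had an adjusted p of 0.9997. Without adjustment, 49 genes in all (0.307%) and 0 members had a p under 0.05. DESeq2 and limma-voom also gave 0 genes after adjustment, with 74 and 37 genes unadjusted. The 37 fold changes (log2, cKO over control) ran from -0.51 to 0.61, with 13 above 0, 24 below 0 and a median of -0.11. Over all genes tested, 8425 were above 0, 7526 (47.2%) were below 0 and the median was 0.03. With a common dispersion of 0.425, which is a biological coefficient of variation of 0.652, these intervals are wide. The smallest standard error among the members was that of Dnajb9, at 0.29. Chac1, the glutathione-degrading enzyme induced by ATF4, did not pass the filter on low counts, with 20 reads in cKO 2 and 2 in cKO 5, against 4 in control 1 and 1 in control 6. Its reads stood above the floor in cKO 2 and control 1 alone.

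**Figure D1:**
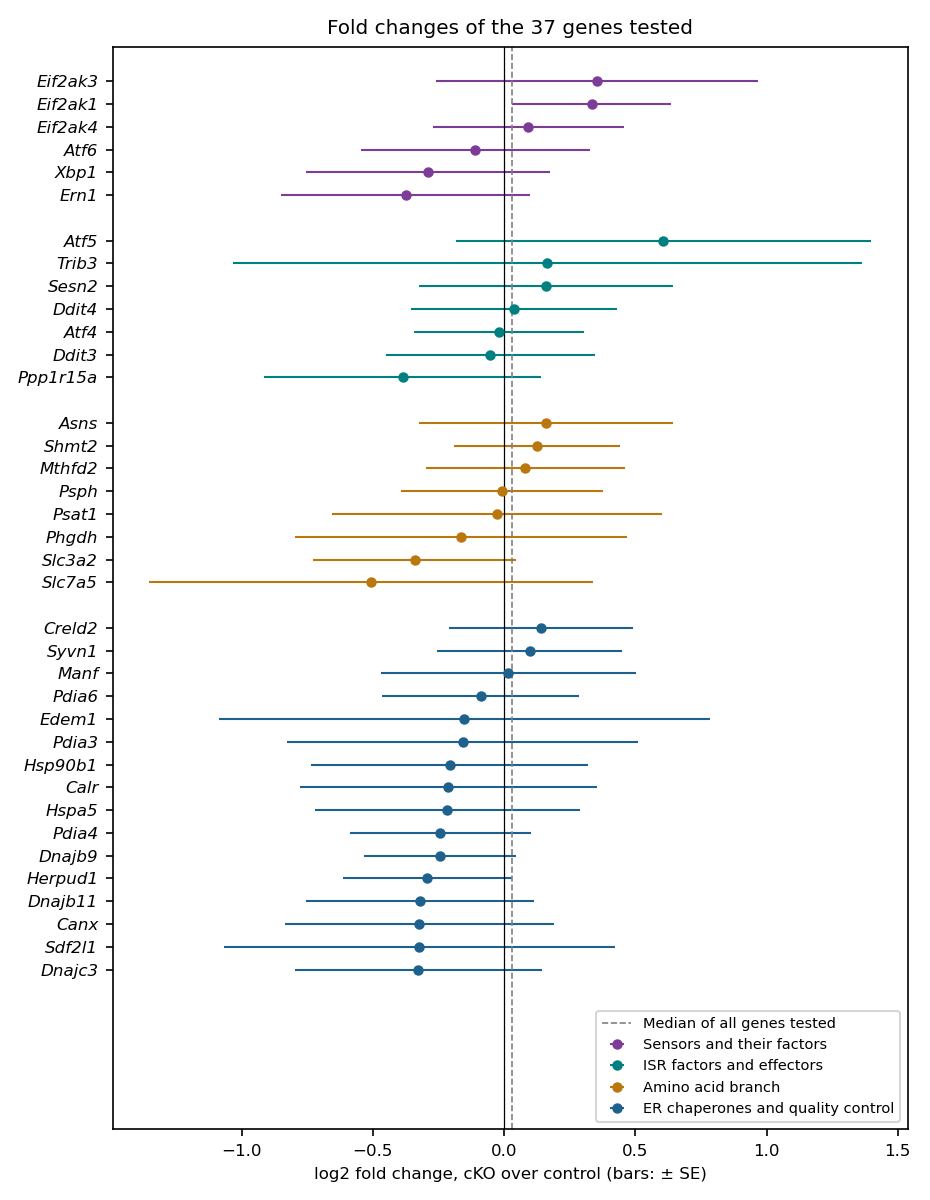
Log2 fold change, cKO over control, of the 37 genes tested, by role, with bars of 1 SE and the median of all genes (0.03) as a dashed line. The points lie between -0.51 (Slc7a5) and 0.61 (Atf5), and 13 of the 16 ER chaperone and quality control genes lie below 0.

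The genes differed far more in level than by genotype. Per kilobase of exon, the mean level over the 4 libraries was highest for Pdia3, a disulfide isomerase of the ER that folds glycoproteins, at 656 CPM per kb. Phgdh, the first enzyme of serine synthesis, followed at 318 CPM per kb. The lectin chaperones Calr and Canx had mean levels of 236 and 234 CPM per kb, Sdf2l1, an ER co-chaperone, 223 and Hspa5, the main ER chaperone BiP, 187. At the other end stood the kinase genes Eif2ak3 (1.74 CPM per kb) and Ern1 (1.55), the pseudokinase gene Trib3 (1.29) and Atf5 (0.900), with Chac1 last at 0.236 CPM per kb.

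**Figure D2:**
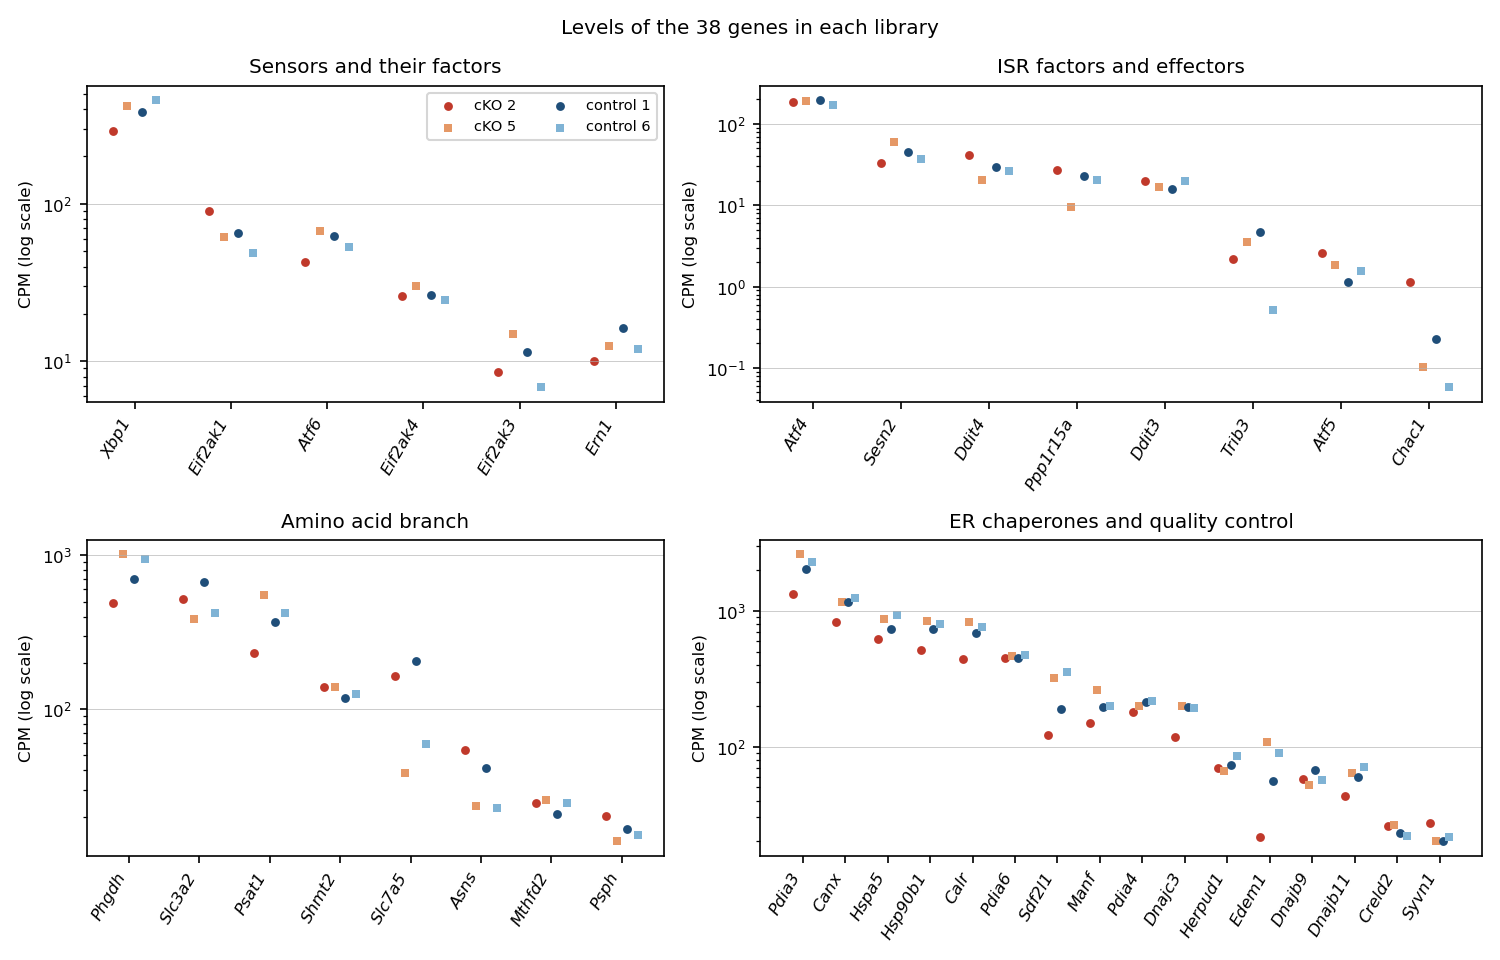
CPM (log scale) of each of the 38 genes in cKO 2, cKO 5, control 1 and control 6, in 4 panels by role. Most genes of the chaperone panel have their lowest point in cKO 2, and Asns and Slc7a5 have both of their higher points in cKO 2 and control 1.

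Among the sensors, 3 of 6 fold changes were above 0 and the median was -0.01. Xbp1 (chromosome 11, 5520659 to 5525893, plus strand), whose spliced form drives chaperone and degradation genes, had 289 and 422 CPM in cKO 2 and cKO 5, against 385 and 455 CPM in control 1 and control 6. The groups overlapped, and its log2 fold change was -0.29 ± 0.47 (SE, 2 libraries per genotype, as for all fold changes below). Atf6, the membrane-bound factor of the chaperone branch, had 42.5 and 67.1 CPM in the cKO libraries and 62.3 and 53.5 CPM in the controls. The lowest and the highest of its values were thus both from cKO libraries, and its log2 fold change was -0.11 ± 0.43. Ern1, which encodes the splicing sensor IRE1 alpha, had 9.99 and 12.4 CPM in the cKO libraries and 16.3 and 12.01 CPM in the controls, a log2 fold change of -0.37 ± 0.47.

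The 3 eIF2 alpha kinases among the sensors each had a positive fold change within about 1 standard error of 0. Eif2ak3, which encodes the ER sensor PERK, had 8.61 and 14.97 CPM in the cKO libraries and 11.5 and 6.85 CPM in the controls (log2 fold change 0.35 ± 0.61). Eif2ak4, which encodes GCN2, the sensor of uncharged tRNA, had 26.2 and 30.1 CPM in the cKO libraries and 26.3 and 24.5 CPM in the controls (0.09 ± 0.36). Eif2ak1 encodes HRI, the heme-regulated kinase, and BACH1 is itself regulated by heme. It had 90.4 and 61.5 CPM in the cKO libraries and 64.8 and 48.5 CPM in the controls, so the deposited values overlapped. After division by the TMM factors both cKO values lay above both control values, and the log2 fold change was 0.33 ± 0.30 with an unadjusted p of 0.329 (edgeR, adjusted p 0.9997). Of its exon bases, 11.6% are shared with Aimp2 or Ankrd61, and 8.05% of those of Eif2ak3 are shared with another annotated gene. The sources used here do not say whether counting used strand, so reads of overlapping genes cannot be told apart.

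The factors and effectors of the integrated stress response had 4 fold changes above 0 and 3 below, with a median of 0.04. Atf4 (chromosome 15, 80255184 to 80257540, plus strand) was among the steadiest genes of the set, with 184 and 193 CPM in the cKO libraries and 195 and 171 CPM in the controls. Its highest value was 1.14 times its lowest, and its log2 fold change was -0.02 ± 0.32. Ddit3, which encodes the pro-apoptotic factor CHOP, had 19.8 and 16.8 CPM in the cKO libraries and 15.9 and 19.7 CPM in the controls (-0.05 ± 0.40), and 10.9% of its exon bases are shared with other genes, Mars among them. The ratio of Atf4 to Ddit3 reads was 9.29 and 11.5 in the cKO libraries and 12.3 and 8.70 in the controls.

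The effectors varied more between libraries than these 2 factors. Ddit4, an inhibitor of mTORC1, had 41.9 and 20.6 CPM in the cKO libraries and 29.8 and 26.3 CPM in the controls (0.04 ± 0.39). Sesn2, a leucine sensor that also restrains mTORC1, had 33.6 and 59.7 CPM in the cKO libraries and 45.8 and 36.7 CPM in the controls (0.16 ± 0.48). For both genes the cKO values enclosed the control values. Ppp1r15a encodes GADD34, which brings phosphatase to eIF2 alpha and ends the response. It had 27.0 and 9.63 CPM in the cKO libraries and 22.7 and 20.7 CPM in the controls (-0.39 ± 0.53), so the low value came from cKO 5 alone. Trib3, which feeds back on ATF4 and CHOP, had 2.195 and 3.52 CPM (38 and 68 reads) in the cKO libraries and 4.69 and 0.522 CPM (82 and 9 reads) in the controls. The controls held both the highest and the lowest value of Trib3, and its standard error of 1.20 was the largest of the set, around a log2 fold change of 0.16. Atf5, which encodes a factor of the mitochondrial stress response, had 2.60 and 1.86 CPM (45 and 36 reads) in the cKO libraries and 1.14 and 1.57 CPM (20 and 27 reads) in the controls. Both cKO values lay above both controls, with a log2 fold change of 0.61 ± 0.79 and an unadjusted p of 0.483 (edgeR, adjusted p 0.9997).

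The amino acid branch was not uniform. Of its 8 genes, 3 had fold changes above 0 and 5 below, with a median of -0.02, and it held pairs of genes with opposite orders of the libraries. Phgdh (chromosome 3, 98313170 to 98339990, minus strand) had 492 and 1013 CPM in cKO 2 and cKO 5, against 704 and 951 CPM in control 1 and control 6. Psat1, the next enzyme of serine synthesis, had 233 and 549 CPM in the cKO libraries and 367 and 422 CPM in the controls. Phgdh and Psat1 were both lowest in cKO 2, highest in cKO 5 and higher in control 6 than in control 1, with log2 fold changes of -0.17 ± 0.63 and -0.03 ± 0.63. Psph, which completes serine synthesis, did not share this order, with 20.05 and 13.8 CPM in the cKO libraries and 16.6 and 15.3 CPM in the controls (-0.01 ± 0.38), and 10.4% of its exon bases are shared with Cct6a.

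Asns and the transporter gene Slc7a5 ran the other way. Asns (chromosome 6, 7675169 to 7693254, minus strand), which makes asparagine and carries the ATF4 element shown above, had 54.1 and 23.4 CPM in cKO 2 and cKO 5, against 41.4 and 22.9 CPM in control 1 and control 6 (log2 fold change 0.16 ± 0.48). Slc7a5 encodes LAT1, a carrier of large neutral amino acids that is abundant in brain endothelium. It had 164 and 38.2 CPM in the cKO libraries and 204 and 59.5 CPM in the controls (-0.51 ± 0.85). In both genes cKO 2 and control 1 were the high libraries and the genotypes overlapped. Slc3a2, the heavy chain that pairs with LAT1, had 518 and 387 CPM in the cKO libraries and 666 and 423 CPM in the controls. Its deposited values overlapped, while after TMM factors both cKO values lay below both controls, with a log2 fold change of -0.34 ± 0.39 and an unadjusted p of 0.426 (edgeR, adjusted p 0.9997).

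Ratios of reads within a library do not depend on its scaling. They are given here for genes already described above, so they restate the split of the branch and do not test it. The ratio of Phgdh to Asns reads was 9.10 in cKO 2 and 43.4 in cKO 5, against 17.01 in control 1 and 41.6 in control 6. That of Psat1 to Asns was 4.30 and 23.5 in the cKO libraries and 8.86 and 18.5 in the controls. Slc3a2 had 3.15 and 10.1 reads for each Slc7a5 read in the cKO libraries and 3.26 and 7.11 in the controls. In all 3 ratios cKO 2 and control 1 were low and cKO 5 and control 6 high. The summed microglial markers were likewise lower in cKO 2 and control 1. Summed endothelial, pericyte, excitatory neuron, radial glia and erythroid markers were all higher there. The part of these cell types in the ratios was not tested.

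The mitochondrial one-carbon genes of the branch were steadier. Shmt2, which passes serine carbon to folate, had 140.3 and 140.1 CPM in the cKO libraries and 119 and 125 CPM in the controls (log2 fold change 0.13 ± 0.32). Mthfd2, the next folate enzyme of that pathway, had 24.6 and 25.7 CPM in the cKO libraries and 20.7 and 24.4 CPM in the controls (0.08 ± 0.38). Both cKO values lay above both controls for Shmt2 and Mthfd2 in deposited CPM, and the groups overlapped for both after TMM factors.

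Of the 16 ER chaperone and quality control genes, 13 had fold changes below 0 and 3 (Creld2, Syvn1 and Manf) above, with a median of -0.21. No member passed the threshold. The median was 0.15 without cKO 2, -0.74 without cKO 5, -0.36 without control 1 and -0.01 without control 6. Hspa5 (chromosome 2, 34771970 to 34777547, plus strand) had 622 and 871 CPM in cKO 2 and cKO 5, against 734 and 934 CPM in control 1 and control 6. Hsp90b1, the ER member of the HSP90 family, had 510 and 844 CPM in the cKO libraries and 730 and 795 CPM in the controls, and 15.7% of its exon bases are shared with other annotated genes. Hspa5 and Hsp90b1 were both lowest in cKO 2, and their values overlapped between genotypes, with log2 fold changes of -0.22 ± 0.51 and -0.21 ± 0.53. The ratio of Hspa5 to Hsp90b1 reads stayed between 1.01 and 1.22 in all 4 libraries.

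Among the lectin chaperones and disulfide isomerases, the order of the libraries varied from gene to gene. Calr had 444 and 829 CPM in the cKO libraries and 684 and 763 CPM in the controls (log2 fold change -0.21 ± 0.57). Canx had 824 and 1163 CPM in the cKO libraries and 1167 and 1238 CPM in the controls (-0.32 ± 0.51), both cKO values just below both controls in deposited CPM but not after TMM factors. Pdia3 had 1325 and 2604 CPM in the cKO libraries and 2036 and 2272 CPM in the controls (-0.16 ± 0.67). Calr, Canx and Pdia3 were lowest in cKO 2, and for Calr and Pdia3 the highest value was that of cKO 5. Pdia4 and Pdia6, isomerases without a lectin partner, differed less between libraries in deposited CPM than Calr, Canx and Pdia3. Pdia4 had 181 and 199 CPM in the cKO libraries and 212 and 217 CPM in the controls (-0.24 ± 0.34). Pdia6 had 449 and 462 CPM in the cKO libraries and 448 and 474 CPM in the controls (-0.09 ± 0.38), and its highest value was 1.06 times its lowest. That narrow range is in deposited CPM, and after TMM factors Pdia4 and Pdia6 too were lowest in cKO 2. On that scale Pdia4 ran from -0.35 in cKO 2 to 0.23 in control 6 (log2 deviation from the mean of the 4 libraries).

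The co-chaperones and secreted factors ranged from steady to widely spread. Sdf2l1, which assists BiP, had 122 and 322 CPM in the cKO libraries and 189 and 356 CPM in the controls (-0.32 ± 0.75). Dnajc3, an ER co-chaperone once described as an inhibitor of eIF2 alpha kinases, had 117 and 199 CPM in the cKO libraries and 197 and 192 CPM in the controls (-0.33 ± 0.47). Dnajb11, another J-domain partner of BiP, had 43.4 and 64.1 CPM in the cKO libraries and 59.6 and 70.3 CPM in the controls (-0.32 ± 0.43). These 3 shared the low value of cKO 2. Dnajb9, which restrains IRE1, had 57.8 and 52.2 CPM in the cKO libraries and 67.0 and 56.9 CPM in the controls. Its values overlapped as deposited and separated after TMM factors, with both cKO values below both controls, a log2 fold change of -0.24 ± 0.29 and an unadjusted p of 0.445 (edgeR, adjusted p 0.9997). Manf, a secreted survival factor held in the ER, had 149 and 260 CPM in the cKO libraries and 197 and 199 CPM in the controls (0.02 ± 0.49), and 9.25% of its exon bases are shared with other genes. Creld2, an ER protein released under stress, had 25.8 and 26.2 CPM in the cKO libraries and 23.01 and 21.99 CPM in the controls (0.14 ± 0.35). Its cKO values lay above the controls as deposited and overlapped them after TMM factors.

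The genes of ER-associated degradation included both wide and narrow spreads. Edem1, a lectin that sends misfolded glycoproteins to degradation, had 21.7 and 108 CPM (375 and 2085 reads) in cKO 2 and cKO 5, against 55.7 and 89.4 CPM (974 and 1540 reads) in control 1 and control 6. Its highest value was 4.99 times its lowest, both from cKO libraries, and its log2 fold change was -0.15 ± 0.93. Without cKO 5 its log2 fold change was -2.01 with an unadjusted p of 0.0181 (edgeR's quasi-likelihood test, adjusted p 0.468), and without cKO 2 it was 0.66. Syvn1, the ubiquitin ligase HRD1 of the same pathway, had 27.4 and 20.1 CPM in the cKO libraries and 20.03 and 21.5 CPM in the controls (0.10 ± 0.35). The ratio of Edem1 to Syvn1 reads was 0.789 and 5.37 in the cKO libraries and 2.78 and 4.16 in the controls, so these 2 steps of 1 pathway did not keep a fixed proportion. Herpud1, which organises that ligase and carries both kinds of element shown above, had 69.7 and 66.5 CPM in the cKO libraries and 72.6 and 85.1 CPM in the controls (-0.29 ± 0.32). Both of its cKO values lay below both controls as deposited and not after TMM factors.

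The low fold changes of the chaperone branch rested on low values in cKO 2 and on control 6. Their median was 0.15 without cKO 2 and -0.01 without control 6. After TMM factors, cKO 2 was the lowest library for 14 of the 16 chaperone genes, for 22 of the 37 members tested and for 33.3% of all genes tested. The median deviation from the mean of the 4 libraries (log2) was -0.60 in cKO 2 and 0.27 in cKO 5, against -0.04 in control 1 and 0.30 in control 6. In cKO 5 the value was higher than in cKO 2 for 15 of the 16 genes, and in control 6 it was higher than in control 1 for 15 of 16. Together the 16 genes took 0.499% of reads in cKO 2 and 0.809% in cKO 5, against 0.689% in control 1 and 0.779% in control 6. Median deviations of the microglial markers followed the same order, at -1.48 and 0.68 in cKO 2 and cKO 5, against 0.04 and 0.83 in control 1 and control 6. Those of the excitatory neuron markers ran the other way, at 1.87 and -0.96 in the cKO libraries and 0.27 and -1.07 in the controls. The part of cell makeup in the chaperone values was not tested. When libraries were scaled to the 20 microglial markers in place of all genes, the chaperone median became 0.92 in cKO 2 and -0.44 in cKO 5, against 0.03 in control 1 and -0.58 in control 6. That scaling shifts every gene of a library by the same amount and moved the median fold change of all genes to 1.13. Relative to that median the chaperone branch was at -0.47. Subtracting the median takes out most of the common shift, so this value is not a separate check of the sign seen with TMM factors.

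**Figure D3:**
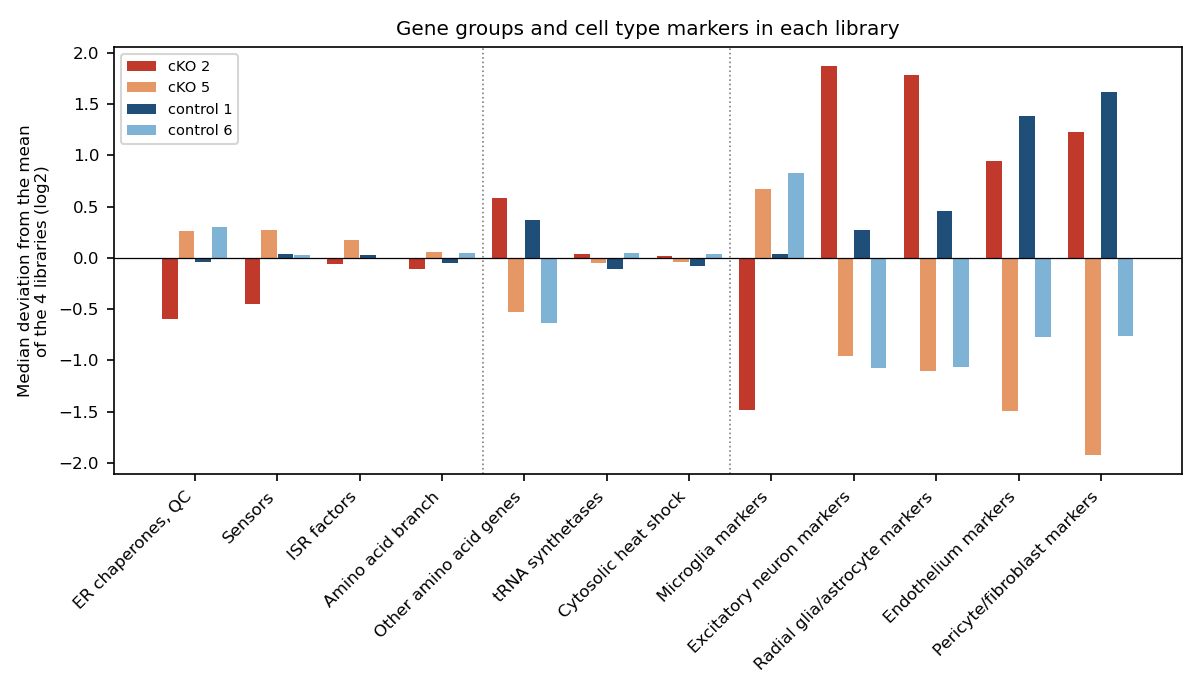
Median deviation of each gene group from the mean of the 4 libraries (log2, CPM divided by TMM factors), for the role groups, 3 related pathway lists and 5 cell type marker lists, with 1 bar per library. The chaperone bars (-0.60, 0.27, -0.04 and 0.30 in cKO 2, cKO 5, control 1 and control 6) are ordered like the microglial marker bars. In sign, the bars of the other amino acid genes are like those of the endothelial, pericyte, excitatory neuron and radial glia markers alike.

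The sensors had median deviations of -0.45 and 0.28 in the cKO libraries and 0.04 and 0.03 in the controls. The integrated stress factors had -0.06 and 0.18 in the cKO libraries and 0.02 and -0.00 in the controls. The amino acid branch had -0.10 and 0.05 in the cKO libraries and -0.05 and 0.05 in the controls, a small median that covers the opposite pairs described above. The chaperone median minus the amino acid median was -0.50 in cKO 2 and 0.21 in cKO 5, against 0.01 in control 1 and 0.25 in control 6. The value of cKO 5 lay between those of the controls and that of cKO 2 below them, so the distance between the branches did not separate the genotypes. An exact permutation over 2 and 2 libraries has 3 distinct splits and cannot give a p below 0.3333.

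Both cKO libraries lay on 1 side of both controls for 4 of the 37 members, 2 above (Eif2ak1 and Atf5) and 2 below (Slc3a2 and Dnajb9). Over all genes tested, 8.33% had both cKO libraries above both controls and 7.64% had both below, so the members' share was not above that of all genes. With library totals alone the members were Atf5, Shmt2, Mthfd2 and Creld2 above (all genes 9.31%) and Canx, Pdia4 and Herpud1 below (all genes 6.57%). With scaling to the microglial markers they were Atf5 and Sdf2l1 above (all genes 9.52%) and 0 below (all genes 1.16%). Atf5 was the member that stayed on the same side under these 3 scalings, at 20 to 45 reads per library.

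The cKO libraries differed more from each other than the genotype means did. The larger of the 2 differences within a genotype exceeded the difference between the genotype means for 34 of the 37 members, against 90.9% of all genes tested. Means of 2 libraries vary less than single libraries, so this share is high even without a genotype effect and does not test for one. The median size of the difference (log2) among members was 0.82 between the cKO libraries and 0.29 between the controls, and 0.27 between genotype means. Over all genes these values were 0.84, 0.47 and 0.27. The difference between the controls was below that between genotype means for the chaperone branch (0.28 against 0.29) and the sensors (0.25 against 0.30). It was above for the integrated stress factors (0.14 against 0.05) and the amino acid branch (0.44 against 0.17). The members with the widest difference between cKO 5 and cKO 2 were Edem1 (2.61), Slc7a5 (-1.77), Sdf2l1 (1.72) and Psat1 (1.56). Between control 6 and control 1 the same genes differed by 0.85, -1.60, 1.08 and 0.38, with the same signs. For Trib3 the signs were opposite, at 0.84 between the cKO libraries and -2.24 between the controls. They were also opposite for Eif2ak3, Sesn2, Ppp1r15a, Ern1, Atf6, Atf4, Atf5, Psph, Dnajb9 and Syvn1, and alike for the other members tested.

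**Figure D4:**
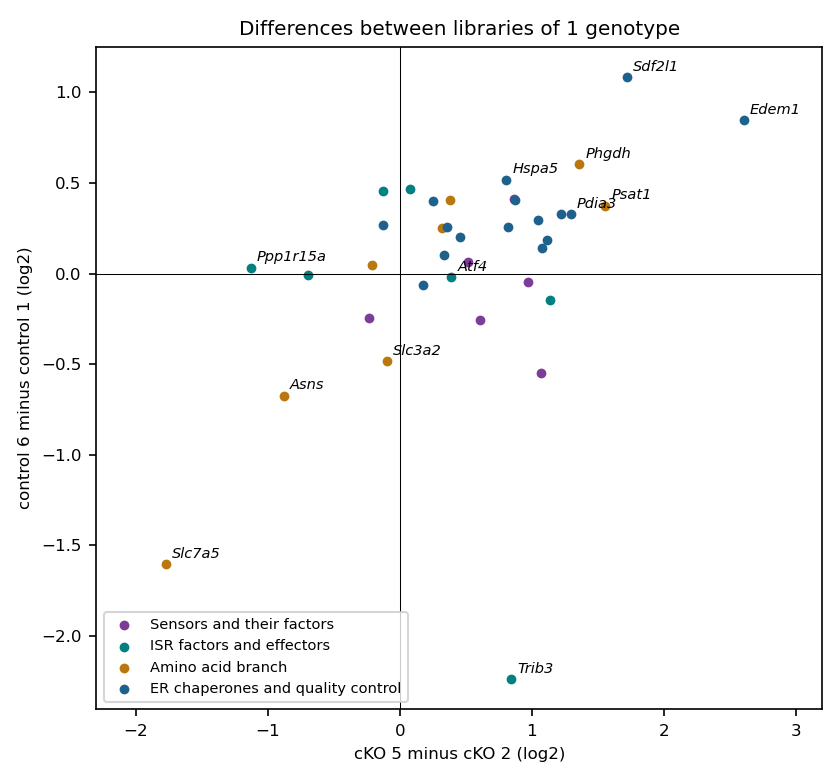
Difference between the libraries of each genotype (log2, CPM divided by TMM factors): cKO 5 minus cKO 2 on the horizontal axis and control 6 minus control 1 on the vertical axis, with 1 point per gene and colours by role. The chaperone genes lie mostly in the upper right with Phgdh and Psat1, Asns and Slc7a5 lie in the lower left, and Trib3 lies in the lower right at 0.84 and -2.24.

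Neighbouring pathways were read from lists of further genes, and none had a gene past the threshold in either direction. Of 16 other ER folding genes tested, 7 had positive and 9 negative fold changes, with a median of -0.02. The most abundant was P4hb, the founding disulfide isomerase, with 282 and 447 CPM in the cKO libraries and 444 and 431 CPM in the controls. Erp29 had 182 and 501 CPM in the cKO libraries and 327 and 372 CPM in the controls, and Calu, a calcium-binding ER protein, had 421 and 258 CPM in the cKO libraries and 431 and 211 CPM in the controls. Of 16 other ER-associated degradation genes, 4 were positive and 12 negative (median -0.16). Vcp, the ATPase that pulls proteins out of the membrane, had 768 and 567 CPM in the cKO libraries and 728 and 555 CPM in the controls. The ubiquitin-conjugating gene Ube2j1 had 135 and 332 CPM in the cKO libraries and 270 and 351 CPM in the controls, and Os9, a lectin of the same pathway, 253 and 240 CPM in the cKO libraries and 257 and 290 CPM in the controls. Of 16 genes of protein entry into the ER, 4 were positive and 12 negative (median -0.10). Ssr1 had 786 and 960 CPM in the cKO libraries and 961 and 1068 CPM in the controls. The signal peptidase gene Spcs2 had 367 and 580 CPM in the cKO libraries and 457 and 671 CPM in the controls, and Ssr3 had 290 and 271 CPM in the cKO libraries and 335 and 238 CPM in the controls.

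On the ATF4 side, 14 of 16 other amino acid genes were tested, with 8 positive and 6 negative fold changes and a median of 0.12. Their 3 most abundant members, the transporter genes Slc1a4, Slc7a1 and Slc38a2, were high in cKO 2 and control 1, as Slc7a5 was. Slc1a4, a neutral amino acid carrier, had 517 and 72.5 CPM in cKO 2 and cKO 5, against 716 and 102 CPM in control 1 and control 6. Slc7a1, a carrier of cationic amino acids, had 347 and 70.6 CPM in the cKO libraries and 450 and 100.3 CPM in the controls. Slc38a2, a sodium-coupled carrier, had 212 and 74.7 CPM in the cKO libraries and 291 and 71.6 CPM in the controls. Summed markers of endothelium, pericytes and fibroblasts, excitatory neurons, and radial glia were also higher in cKO 2 and control 1. The part of these cell types in the transporter genes was not tested. The median deviation of the list was 0.59 and -0.53 in cKO 2 and cKO 5, against 0.37 and -0.64 in control 1 and control 6. Of 12 cytosolic tRNA synthetase genes, another class of ATF4 targets, 8 were positive and 4 negative, with a median of 0.08. Nars had 266 and 325 CPM in the cKO libraries and 249 and 354 CPM in the controls, Aars 310 and 252 CPM in the cKO libraries and 256 and 243 CPM in the controls, and Eprs 252 and 182 CPM in the cKO libraries and 226 and 194 CPM in the controls. In deposited CPM the genotypes overlapped for all 3, while after TMM factors both cKO values of Aars lay above both controls.

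Of 17 other integrated stress genes tested, 9 were positive and 8 negative (median 0.01). Nfe2l2, which encodes NRF2, a factor that competes with BACH1 for antioxidant elements, had 128 and 299 CPM in the cKO libraries and 252 and 326 CPM in the controls. Ppp1r15b, the constitutive partner of the eIF2 alpha phosphatase, had 151 and 152 CPM in the cKO libraries and 159 and 127 CPM in the controls, and Eif2b2, a subunit of the eIF2 exchange factor, 168 and 128 CPM in the cKO libraries and 174 and 155 CPM in the controls. Of 9 tested genes of cell death under ER stress, 2 were positive and 7 negative (median -0.19). Tmbim6 had 776 and 1182 CPM in the cKO libraries and 1001 and 1463 CPM in the controls, Txnip 155 and 297 CPM in the cKO libraries and 333 and 242 CPM in the controls, and Bax 108 and 126 CPM in the cKO libraries and 88.0 and 120 CPM in the controls. In deposited CPM the genotypes overlapped for these 6 genes, while after TMM factors both cKO values of Eif2b2 lay below both controls.

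Cytosolic heat shock genes gave a comparison outside the ER, with 9 of 12 positive and a median of 0.06. Hspa8 had 1214 and 1257 CPM in the cKO libraries and 1140 and 1147 CPM in the controls, and Hsp90ab1 had 1161 and 1245 CPM in the cKO libraries and 1149 and 1062 CPM in the controls. Both cKO values of Hspa8 and Hsp90ab1 lay above both controls in deposited CPM, and the groups overlapped after TMM factors. Hsp90aa1, the stress-induced form, had 1124 and 637 CPM in the cKO libraries and 680 and 579 CPM in the controls, with its highest value in cKO 2. After TMM factors both cKO values of Hsp90aa1 lay above both controls. Immediate early genes, which rise during tissue dissociation, had 1 positive and 7 negative fold changes among 8 tested, with a median of -1.04. Jun had 246 and 202 CPM in the cKO libraries and 322 and 309 CPM in the controls, and Junb had 62.6 and 75.6 CPM in the cKO libraries and 139 and 116 CPM in the controls. Ier2 had 149 and 78.3 CPM in the cKO libraries and 126 and 108 CPM in the controls. Fos and Egr1 had unadjusted p-values of 0.0320 and 0.0308 (edgeR, adjusted p 0.9997 each) with log2 fold changes of -1.78 and -1.37, and were named after their values were seen. Jun and Junb were lower in both cKO libraries than in both controls, and the part of dissociation in the stress genes was not tested.

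Wider classes were taken from the annotation deposited with the tables. Of 45 tested genes annotated to the unfolded protein response of the ER, 16 had positive and 29 negative fold changes, with a median of -0.14. Of 67 annotated to the response to ER stress, 23 were positive and 44 negative (median -0.09). Members made up 11 genes of the first class (3 positive, 8 negative) and 12 of the second (3 positive, 9 negative). These classes thus partly repeat the members. Of 90 annotated to the ER lumen, 32 were positive and 58 negative (median -0.12), and the 10 members among these had 0 positive and 10 negative fold changes (median -0.23). After TMM factors, all 10 of these members had their lowest value in cKO 2, against 39 of the 90 lumen genes as a whole.

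The authors' deposited tables compare 1 cKO library with 1 control library, so they have no replicates, and tables that share a library are not independent. Their calls need a p under 0.05 and a change of 1 or more on the log2 scale. For cKO 2 against control 1, the authors' deposited table called 2 of the 38 genes up (Atf5 at 1.18 and Chac1 at 2.34) and 2 down (Trib3 at -1.10 and Edem1 at -1.36), where 20.0% of all genes were called up and 11.6% down. For cKO 2 against control 6, the authors' deposited table called 4 up (Trib3 at 2.07, Chac1 at 4.32, Asns at 1.24 and Slc7a5 at 1.47) and 2 down (Sdf2l1 at -1.55 and Edem1 at -2.04), with 33.7% and 13.4% of all genes. For cKO 5 against control 1, the authors' deposited table called 0 up and 2 down (Ppp1r15a at -1.24 and Slc7a5 at -2.42), with 8.79% and 26.0% of all genes. For cKO 5 against control 6, the authors' deposited table called 2 up (Eif2ak3 at 1.13 and Trib3 at 2.75) and 1 down (Ppp1r15a at -1.10), with 9.23% and 11.4% of all genes.

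No gene of the set was called in the same direction in all 4 of the authors' deposited tables. Trib3 and Slc7a5 were each called up in at least 1 of these tables and down in another. Edem1 was called down in both tables of cKO 2 and in neither table of cKO 5, and Ppp1r15a was called down in both tables of cKO 5 and in neither of cKO 2. Chac1 was called up in both tables of cKO 2, on counts of 20 reads against 4 and 1. The median log2 change of the 16 chaperone genes in the authors' deposited tables was -0.43 and -0.59 for cKO 2 against control 1 and control 6, and 0.15 and -0.06 for cKO 5 against the same controls.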

How the data were processed

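Counts, fold changes and annotation come from 4 tables, each of 1 cKO and 1 control library. The submitters' processing notes name HTSeq 0.6.0, TopHat2 2.0.12, Bowtie2 2.2.3 and the build mm9. The sources used here state no role, setting or strandedness. Gene positions nevertheless matched GRCm38 (GENCODE vM21) exactly for 90.3% of 21922 matched genes and for 35 of the 38 members, so they are given as GRCm38. Per the file headers, each table holds raw read counts per Ensembl gene and normalized values. The deposited normalized values are CPM, in which genes without reads stand at the value of 0.5 reads. The deposited fold change is a ratio of these values, cKO over control, with its log2. The authors' test behind the deposited p-value is not stated.

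Counts were joined on the gene ID, and 18723 genes had a count in every library, all 38 members among them. Genotypes were compared in R 4.3.3 with edgeR 4.0.16 (two-sided quasi-likelihood test), with TMM factors of 1.15 and 0.919 for cKO 2 and cKO 5, against 1.03 and 0.917 for control 1 and control 6. A filterByExpr minimum count of 10 left 15951 genes and 2 residual degrees of freedom. P-values were adjusted over all genes by Benjamini-Hochberg at 0.05. The SE of a log2 fold change is its size over the square root of F. Deviations and overlap used log2(CPM + 0.5) with CPM divided by TMM factors, which is the scale meant by "after TMM factors". CPM per kilobase used the union of exons in GENCODE vM21. The test was run on simulated counts at the dispersion of these data and at a much lower one. Only the run at the lower dispersion had to reach a set recovery. The power at the dispersion of these data is not given here.

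The members were named whatever their values, with Bach1. Further genes were the 3 most abundant of each pathway list (other ER folding, other ER-associated degradation, protein entry into the ER, tRNA synthetases, other amino acid genes, other integrated stress genes, death under ER stress, cytosolic heat shock and immediate early genes). Marker lists for cell types were fixed likewise. Members and lists were chosen with earlier results of these data known. Alternatives were RLE factors, library totals alone, scaling to 20 microglial markers, no filter, DESeq2 1.42.0, limma-voom (limma 3.58.1) and leaving out each library.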

Additional observations from a re-analysis of the deposited data

How the results depend on the processing

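No gene passed the adjusted threshold under any of the alternatives run, the smallest adjusted p being 0.468 without cKO 5. There, 1784 genes had an unadjusted p under 0.05, Edem1 the 1 member among them, against 583 without cKO 2. Most members changed sign when a single library was left out. Leaving out 1 library at a time gave medians for all members of -0.43 to 0.19, for the sensors -0.51 to 0.28, for the integrated stress factors -0.10 to 0.19, for the amino acid branch -0.094 to 0.10 and for the chaperone branch -0.74 to 0.15. Where such a step leaves 1 library in a genotype, that library is assumed to vary like the other genotype. The gene-level ranges that cross 0 were Atf6 -0.69 to 0.33, Xbp1 -0.80 to 0.11, Eif2ak3 -0.32 to 0.84, Eif2ak4 -0.21 to 0.36, Atf4 -0.24 to 0.19, Ddit3 -0.28 to 0.20, Ddit4 -0.33 to 0.34, Trib3 -0.66 to 2.32, Sesn2 -0.54 to 0.65, Ppp1r15a -1.06 to 0.071, Asns -0.33 to 0.53, Psat1 -1.02 to 0.58, Phgdh -1.01 to 0.39, Psph -0.092 to 0.084, Shmt2 -0.053 to 0.31, Mthfd2 -0.14 to 0.30, Slc7a5 -1.63 to 0.48, Hspa5 -0.69 to 0.16, Hsp90b1 -0.83 to 0.25, Calr -0.96 to 0.30, Canx -0.80 to 0.057, Pdia3 -0.96 to 0.38, Pdia6 -0.29 to 0.11, Sdf2l1 -1.44 to 0.32, Dnajb11 -0.84 to 0.083, Dnajc3 -0.98 to 0.14, Creld2 -0.051 to 0.33, Manf -0.66 to 0.50, Edem1 -2.01 to 0.66, Syvn1 -0.046 to 0.23. The genes whose direction held in all 4 of these fits were Ern1, Eif2ak1, Atf5, Slc3a2, Pdia4, Dnajb9, Herpud1. The highest of these values for Pdia4 was -0.0053. The share of all genes that held direction is not given here, so the list does not set these members apart.

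Scaling to the microglial markers shifted the median of all genes to 1.13, against 0.03, and gave medians of 0.82 for all members, 0.83 for the sensors, 1.07 for the integrated stress factors, 1.00 for the amino acid branch and 0.66 for the chaperone branch. It likewise gave medians of 0.91 for other ER folding and for protein entry into the ER, 0.99 for other ER-associated degradation and 0.53 for death under ER stress. Relative to the shifted median of all genes, all members were at -0.32, the sensors at -0.30, the integrated stress factors at -0.066, the amino acid branch at -0.14, the chaperone branch at -0.47, Eif2ak3 at -0.13, Eif2ak4 at -0.082, Trib3 at -0.51, Sesn2 at -0.28, Psph at 0.062 and Manf at -0.36. Library totals alone gave 0.043 for Atf4, 0.041 for Ddit3 and 0.088 for Psph, with 7 members whose groups do not overlap, against 4 with TMM and 2 with microglial scaling. limma-voom gave -0.082 for Manf. With 1 library left out, the medians of 8 pathway lists crossed 0: other ER folding (-0.32 to 0.031), other ER-associated degradation (-0.33 to 0.073), protein entry (-0.26 to 0.10), tRNA synthetases (-0.019 to 0.15), other amino acid genes (-0.37 to 0.75), other integrated stress genes (-0.25 to 0.17), death under ER stress (-0.93 to 0.23) and cytosolic heat shock (-0.099 to 0.27). Immediate early genes stayed below 0 (-1.27 to -0.74). RLE factors, DESeq2 and no filter kept the direction of the 37 members. The causes of these shifts were not tested. No paired analysis was possible because the labels give the genotypes no replicate number in common.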
